A study of Mus musculus with 6 samples.

Results

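The genes described here encode the receptors and ligands through which microglia receive CSF1, GM-CSF, G-CSF and TGF-β. They were taken by symbol, 10 genes of the 55487 in the gene counts: Csf1r, Csf1 and Il34, Csf2ra, Csf2rb and Csf2rb2, Csf3r, and Tgfb1, Tgfbr1 and Tgfbr2. Their counts were compared between 3 Cre+ and 3 Cre− libraries of cultured mouse microglia. The cells came from the cortex of CAG::CreERT2; Nr1d1fl/fl pups of postnatal days 1 to 3 and of Cre− littermates, so the floxed allele of Nr1d1 was shared by both groups. Nr1d1 encodes REV-ERBα, a nuclear receptor of the circadian clock that represses transcription. All 6 cultures were given 4-hydroxytamoxifen (4-OHT), which activates CreERT2, at 1.5 μM for 2 days by the labels (the methods of the study give a shorter exposure for such cultures), so the groups differed in the recombinase and not in the drug. The CAG promoter is active in most cell types, so it does not limit the recombinase to microglia, and recombination in other cells of the dish was not measured here. Per the methods, microglia were shaken off mixed glial cultures that had been kept in medium with added GM-CSF, the ligand of one of the receptors described here. No source used here says how many pups stand behind each culture, and the p-values measure the spread between these 6 samples.

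CSF1 and IL-34 are the ligands of CSF1R, the receptor tyrosine kinase on which the survival of microglia and most tissue macrophages depends. GM-CSF binds the α chain encoded by Csf2ra, which then pairs with the β chain encoded by Csf2rb and signals through JAK2 and STAT5. The same β chain serves the receptors for IL-3 and IL-5, and mice carry a second β chain gene, Csf2rb2, whose product serves IL-3. TGF-β binds TGFBR2, which recruits and activates TGFBR1, and the pair phosphorylates SMAD2 and SMAD3. TGF-β is needed for the gene expression that sets microglia apart from other macrophages.

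Since Csf2rb and Csf2rb2 arose by duplication, their sequences show how far reads can be told apart. In the GRCm38 genome Csf2rb (ENSMUSG00000071713) lies on the plus strand of chromosome 15 at chr15:78325752-78353847, and Csf2rb2 (ENSMUSG00000071714) on the minus strand beside it at chr15:78282507-78305721. Their coding sequences, of 2691 and 2637 bases, align over 2631 bases, of which 126 differ (95.2% identity), and the longest identical run is 242 bases. Both stretches of 90 coding bases below lie inside an exon of the longest coding transcript, and capitals mark the bases that differ between the genes. The most alike stretch runs over chr15:78341658-78341747 in exon 9 of Csf2rb and chr15:78291563-78291652 in exon 8 of Csf2rb2, and 0 bases differ there. The least alike stretch runs over chr15:78338897-78338986 in exon 5 of Csf2rb and chr15:78294345-78294434 in exon 4 of Csf2rb2, with 16 differences.
Csf2rb, most alike: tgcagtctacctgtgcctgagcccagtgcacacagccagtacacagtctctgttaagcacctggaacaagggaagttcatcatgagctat
Csf2rb2, most alike: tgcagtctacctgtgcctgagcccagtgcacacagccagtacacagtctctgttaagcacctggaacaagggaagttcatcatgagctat
Csf2rb, least alike: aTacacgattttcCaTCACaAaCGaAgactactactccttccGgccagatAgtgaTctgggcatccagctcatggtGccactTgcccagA
Csf2rb2, least alike: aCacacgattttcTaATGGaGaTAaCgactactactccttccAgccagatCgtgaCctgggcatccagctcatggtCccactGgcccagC
Of all windows of 50 bases in the longest coding transcript, 18.4% for Csf2rb and 19% for Csf2rb2 occurred without a mismatch in the other gene, and of windows of 150 bases 3.47% and 3.59%. The other windows hold at least 1 base that separates the genes. By the methods, the reads were paired and 150 bases long, so the shares for 150 bases are the nearer guide. How the counting treated reads that match both genes is not given in the sources used here. The split of such reads between the genes is uncertain, and the sum of the 2 genes is given below as well.

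The 6 libraries held between 87545868 and 110909129 counts on genes. Of the genes above 1 CPM (counts per library total scaled to 1000000) in at least 4 libraries, 11429 in all, edgeR's quasi-likelihood test with Benjamini-Hochberg adjustment called 5.07% at an adjusted p of at most 0.05 (2.50% higher and 2.56% lower in Cre+). Nr1d1, the targeted gene, had normalized counts of 2.35, 1.202 and 1.64 CPM in Cre− and 1.00, 0.945 and 1.081 CPM in Cre+ libraries, which do not overlap. Its log2 fold change was −0.77 (SE 0.251), with an adjusted p of 0.0945 by edgeR. Nr1d1 lay near the expression filter. Among leave-one-out fits with edgeR it passed the filter only without Cre+ replicate 1 (−0.77, adjusted p = 0.186) or Cre+ replicate 2 (−0.73, adjusted p = 0.205). The counts cover the whole gene and not only the floxed exons. Normalized counts throughout are CPM of library sizes scaled by the TMM method. All 10 markers of microglia and macrophages passed the expression filter, and their summed level was 9860 to 10300 CPM in Cre− and 9740 to 10100 CPM in Cre+ libraries, with Aif1 the lowest at means of 2.71 and 2.56 CPM. Markers of other cells were low: 1.50 to 2.66 CPM in Cre− and 0.924 to 1.10 CPM in Cre+ for the 7 fibroblast and mural cell markers, 2.45 to 3.23 and 1.93 to 2.08 CPM for the 6 neuronal markers, 12.9 to 14.1 and 11.3 to 15 CPM for the 7 astrocyte markers, with Gfap at means of 0.145 and 0.223 CPM. The 8 oligodendrocyte lineage markers summed to 83.7 to 92.8 and 80.9 to 85.7 CPM, the 6 endothelial ones to 20.9 to 22.9 and 24.3 to 27.9 CPM, and the 6 dendritic cell ones to 3.23 to 5.06 and 3.81 to 4.42 CPM. For the 7 markers of border macrophages the sums were 152 to 155 and 151 to 183 CPM, with Mrc1 higher (log2 fold change 0.47, adjusted p = 0.000669 by edgeR) and Pf4 lower (−0.79, adjusted p = 0.00956 by edgeR) in Cre+, and for the 5 monocyte markers 10.7 to 14 and 7.29 to 8.41 CPM.

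Of the 10 genes, 9 passed the expression filter. Levels of different genes are compared here per kilobase of the deposited gene length (FPKM, from the normalized counts). Csf2ra was the most abundant, with 153 ± 22.2 FPKM (SD, n = 3) in Cre− and 125 ± 7.75 FPKM in Cre+ cultures, followed by Csf2rb (85.9 ± 1.14 and 85.5 ± 3.90 FPKM), Csf1r (80.8 ± 6.05 and 80.0 ± 2.11 FPKM) and Csf2rb2 (56.9 ± 2.92 and 57.0 ± 3.90 FPKM). Tgfbr1 had 28.5 ± 1.90 and 29.4 ± 0.793 FPKM, Tgfbr2 8.61 ± 0.273 and 7.64 ± 0.416 FPKM, and Csf1 7.35 ± 1.04 and 6.75 ± 0.437 FPKM. Csf3r (0.908 ± 0.131 and 0.690 ± 0.129 FPKM) and Tgfb1 (0.809 ± 0.0494 and 0.724 ± 0.140 FPKM) were lower again. By its mean over the 6 libraries Csf2ra stood above 97.2% of the genes tested and Csf1r above 95.1%, whereas Tgfb1 stood above 16.1%.

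**Figure D1:**
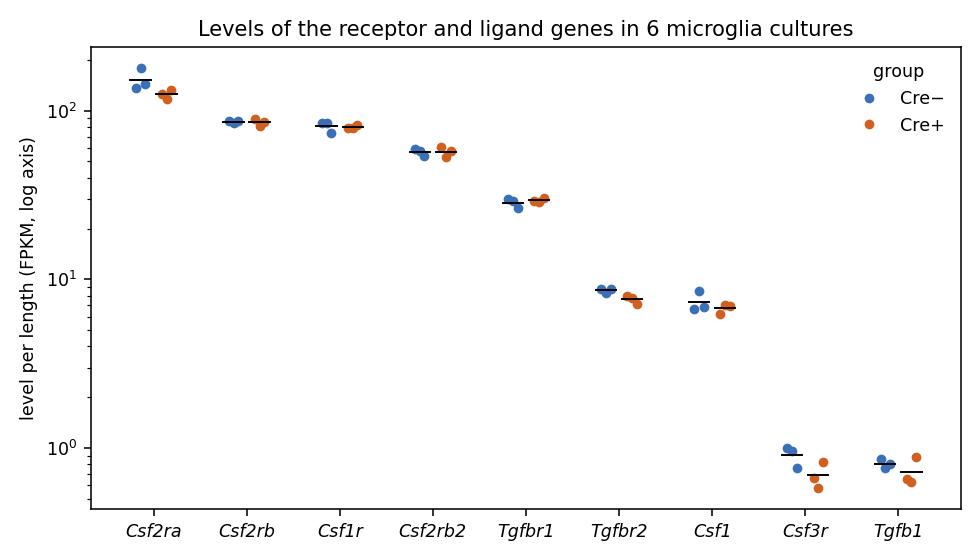
Level per length (FPKM, log axis) of the 9 genes that passed the expression filter, in order of their mean; each point is a library, Cre− in blue and Cre+ in orange, and each bar is the mean of a group of 3. The 4 genes on the left, Csf2ra, Csf2rb, Csf1r and Csf2rb2, lie above 50 FPKM in every library, and Csf3r and Tgfb1 lie near 1 FPKM or below.

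Csf1r thus lay above the genes of its ligands, and the TGF-β receptor genes above Tgfb1, in every library. Neighbours in this order did not always differ beyond their spread: the ranges over the 6 libraries overlapped for Csf2rb and Csf1r, although Csf2rb was higher in 6 of 6 libraries, for Tgfbr2 and Csf1 (5 of 6), and for Csf3r and Tgfb1 (3 of 6). The ranges of the other neighbours were apart. With the length of the longest coding transcript in place of all exons, an alternative chosen after the data were seen, Csf1 moved ahead of Tgfbr2 (8.91 against 8.22 FPKM over the 6 libraries) and Tgfb1 ahead of Csf3r (1.78 against 0.828 FPKM), and the other 6 places held.

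In the CSF1 axis 0 of 2 genes tested passed edgeR's test (0 at an unadjusted p under 0.05, and 0 by DESeq2's test or limma). Csf1r (ENSMUSG00000024621, chr18:61100598-61132149), the receptor, had normalized counts of 487, 486 and 426 CPM in Cre− and 453, 458 and 476 CPM in Cre+ cultures. The Cre+ values lie inside the range of the Cre− values. The log2 fold change was −0.01 (SE 0.0515, 95% interval −0.12 to 0.097), with an adjusted p of 0.935 by edgeR. Of its 5774 exon bases, 873 (15.1%) overlap Hmgxb3 on the opposite strand, and without a stated strand setting reads from those bases cannot be assigned to either gene.

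Csf1 (ENSMUSG00000014599, chr3:107741048-107760469), the ligand gene, was measured at 35.1, 45.1 and 36.2 CPM in Cre− and 33.0, 37.4 and 36.5 CPM in Cre+ cultures. Cre− replicate 2 was the highest library and the others overlapped. The log2 fold change was −0.12 (SE 0.0888, 95% interval −0.31 to 0.065), with an adjusted p of 0.497 by edgeR. Within a library, the counts on Csf1 were 0.0833 ± 0.0104 (SD, n = 3) of those on Csf1r in Cre− and 0.0771 ± 0.00437 in Cre+ cultures.

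Il34 (ENSMUSG00000031750, chr8:110741829-110805924), the other ligand gene, was almost undetected, with 4, 0 and 0 counts in Cre− and 0, 2 and 6 counts in Cre+ libraries. It did not pass the filter, and a 2-sided exact permutation test over its CPM in the 6 libraries gave p = 0.7, where 3 libraries against 3 cannot go below 0.1. A count of 0 allows up to 3 counts, a limit that covers counting error only, and at this depth the values of Il34 show no difference beyond the spread between libraries.

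The GM-CSF receptor held the one gene of the 10 that was called. Csf2ra (ENSMUSG00000059326, chr19:61223957-61228429), the α chain that binds GM-CSF, had normalized counts of 390.4, 511 and 414 CPM in Cre− and 358, 337 and 381.5 CPM in Cre+ cultures. All 3 Cre+ libraries lay below all 3 Cre− libraries, with Cre− replicate 2 far above the others and only a narrow gap between Cre− replicate 1 and Cre+ replicate 3. The log2 fold change was −0.29 (SE 0.0771, 95% interval −0.45 to −0.12), a fold of 0.819, with an adjusted p of 0.0423 by edgeR. In fewer CPM from a culture, fewer cells with the receptor and less of its RNA per cell cannot be told apart.

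The call on Csf2ra was close to the threshold and did not hold under every analysis. DESeq2's test, which called 7.94% of its genes, gave a log2 fold change of −0.29 (SE 0.135) and an adjusted p of 0.183. In leave-one-out fits with edgeR the call was kept without Cre− replicate 1 (−0.37, adjusted p = 0.0101). It was lost without Cre− replicate 2 (−0.16, adjusted p = 0.149), Cre− replicate 3 (−0.33, adjusted p = 0.0570), Cre+ replicate 1 (−0.29, adjusted p = 0.0988), Cre+ replicate 2 (−0.25, adjusted p = 0.159) and Cre+ replicate 3 (−0.34, adjusted p = 0.0581). Csf2ra in Cre− replicate 2 was 1.27 times the mean of the other Cre− libraries, and Csf1 1.26 times, a ratio reached by 4.20% and 4.38% of all genes tested.

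**Figure D2:**
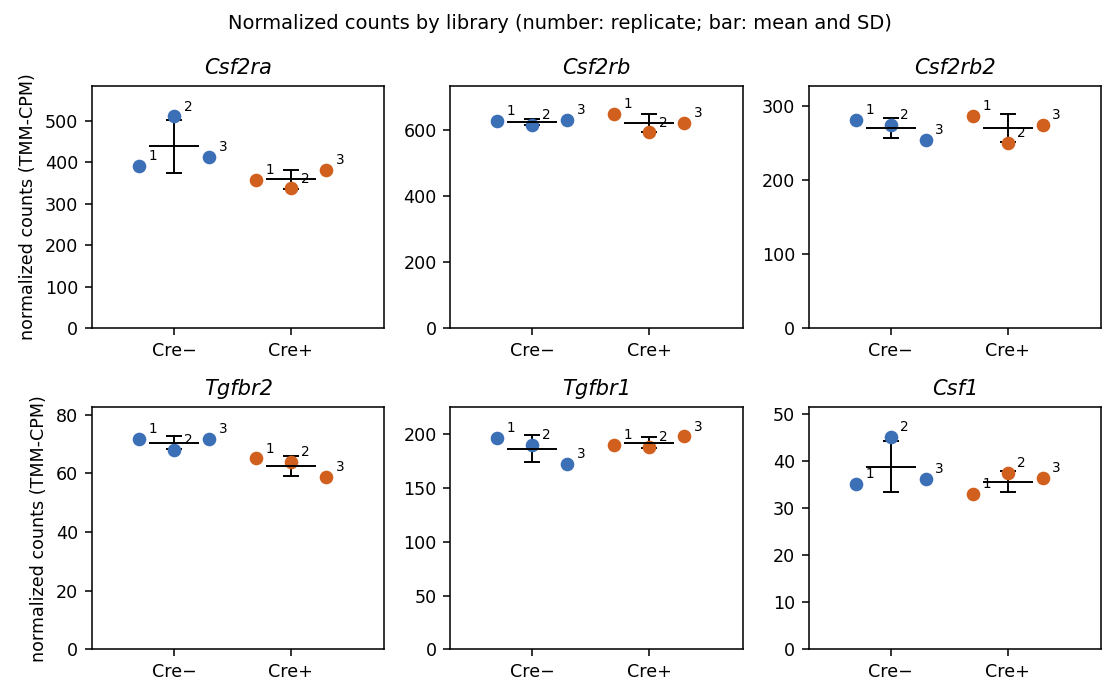
Normalized counts (TMM-CPM) of Csf2ra, Csf2rb, Csf2rb2, Tgfbr2, Tgfbr1 and Csf1 in each library, with replicate numbers beside the points, and the mean and SD of each group of 3 as black bars. Cre− replicate 2 stands highest for Csf2ra (511 CPM) and Csf1 (45.1 CPM), and the 3 Cre+ points of Csf2ra and of Tgfbr2 lie below all Cre− points.

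Neither β chain gene passed the test. Csf2rb had 627.5, 616 and 632 CPM in Cre− and 650.2, 593.5 and 622 CPM in Cre+ cultures, a log2 fold change of −0.007 (SE 0.0425, 95% interval −0.097 to 0.083; adjusted p = 0.959 by edgeR). The Cre+ values spread to both sides of the Cre− values. Csf2rb2 had 281, 274 and 254 CPM in Cre− and 287, 250.1 and 274 CPM in Cre+ cultures, a log2 fold change of 0.0019 (SE 0.0546, 95% interval −0.11 to 0.12; adjusted p = 0.992 by edgeR). With the counts of the 2 genes summed, which removes the uncertainty of their split, the log2 fold change was −0.0043 (SE 0.0429; adjusted p = 0.976 by edgeR).

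Since library scaling cancels in a ratio of counts from the same library, α chain was also set against β chain directly. Counts on Csf2ra were 0.622, 0.830 and 0.655 of those on Csf2rb in Cre− and 0.551, 0.568 and 0.613 in Cre+ libraries. The groups did not overlap, and the 2-sided exact permutation test on the log2 ratio gave p = 0.1, the smallest that 3 against 3 allows (0.2 after adjustment over the 6 ratios computed). Against Csf2rb and Csf2rb2 together the ratio was 0.490 ± 0.0750 (SD, n = 3) in Cre− and 0.403 ± 0.0221 in Cre+ (exact permutation p = 0.1, adjusted 0.2). Counts on Csf2rb2 were 0.432 ± 0.0254 of those on Csf2rb in Cre− and 0.434 ± 0.0110 in Cre+ libraries (exact permutation p = 1). Counts on Csf2rb were 1.35 ± 0.119 and 1.35 ± 0.0782 of those on Csf1r (exact permutation p = 1).

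As the called gene, Csf2ra is shown with the 250 bases before its RefSeq start on the minus strand of chromosome 19 (GRCm38.p6, chr19:61228419-61228668). Capitals mark GAGGAA, letters that the macrophage factor PU.1 binds, which occur as 2 adjoining copies between 3 and 14 bases before the start. In the coordinates of the gene counts the gene reaches chr19:61228429. The end of this stretch, with part of the marked copies, therefore lies inside the gene by those coordinates.
Csf2ra promoter: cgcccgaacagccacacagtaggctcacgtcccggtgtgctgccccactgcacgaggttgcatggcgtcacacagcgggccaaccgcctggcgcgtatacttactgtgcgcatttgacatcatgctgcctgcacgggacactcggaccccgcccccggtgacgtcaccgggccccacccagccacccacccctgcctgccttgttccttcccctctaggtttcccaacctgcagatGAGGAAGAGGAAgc
On either strand of the 250 bases before each start, GAGGAA occurred in 23.3% of 32851 RefSeq promoters. It was found for Csf2ra, Csf2rb2, Csf3r, Tgfbr1 and Tgfbr2 among the 7 genes with an entry in the table. AGGTCA, the half-site of REV-ERBα, occurred in 14% of all promoters, and the longer RORE in 0.332%, and neither was in the promoter window of any of the 7. The paired half-site AGGTCANNAGGTCA occurred in 0.00913% of promoters, again in none of the 7. GGGCGG, the letters of an SP1 site, occurred in 32.7% of all promoters and in those of Csf1, Csf2ra, Tgfb1 and Tgfbr1. A match describes letters and not binding.

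The ligand Csf2 was at means of 0.0186 CPM in Cre− and 0.00608 CPM in Cre+ cultures, so GM-CSF transcripts were near the limit of detection. The list of the wider receptor family (Csf2, Il3, Il5 and the chains that bind them, 8 genes) had 4 genes tested, of which 2 fell (50%, against 2.56% of all genes), 0 rose and 2 did not pass edgeR's test, with a median log2 fold change of −0.15 against 0.0023 over all genes tested. The second gene that fell was Il3ra, the α chain of the IL-3 receptor, which also pairs with these β chains. It had 42.1, 47.9 and 44.4 CPM in Cre− and 35.4, 33.9 and 37.3 CPM in Cre+ cultures, with no overlap. The log2 fold change of Il3ra was −0.33 (SE 0.0682; adjusted p = 0.00956 by edgeR), and the call was kept in 6 of 6 leave-one-out fits. Il5ra, the α chain for IL-5, was below the filter at means of 0.0531 and 0.00689 CPM.

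Downstream of the receptor, edgeR called 0 of 9 JAK and STAT genes (median 0.0067; 4 at an unadjusted p under 0.05). DESeq2's test called 1 of them, Jak2, the kinase bound to the β chain, at means of 6.98 CPM in Cre− and 4.88 CPM in Cre+ (log2 fold change −0.52, SE 0.168; adjusted p = 0.0313 by DESeq2 and 0.0803 by edgeR), and limma called 0 with or without quality weights. The most abundant was Jak1, a kinase of many cytokine receptors, at 136, 150.4 and 136 CPM in Cre− and 149.9, 155 and 168 CPM in Cre+ (log2 fold change 0.17, SE 0.0563; adjusted p = 0.113 by edgeR). In an unfiltered edgeR fit, which shifted all tested genes by a median of 0.0785, Jak1 was called (0.24, adjusted p = 0.0124). Neither STAT5 gene was called in the full fit. Stat5a had a log2 fold change of −0.42 (SE 0.143; adjusted p = 0.1165 by edgeR) and was called in 1 of 6 leave-one-out fits. Stat5b was at −0.21 (SE 0.134; adjusted p = 0.421 by edgeR). Of the 9 genes, 5 had a log2 fold change above 0 and 4 below it. Of 15 genes known to respond to GM-CSF or STAT5, 9 were tested, 1 rose, 1 fell and 7 did not pass edgeR's test (22.2% called, against 5.07% of all genes; median 0.035). Itgax, which encodes the integrin CD11c and is induced by GM-CSF in myeloid cells, rose from 324, 331 and 319 CPM to 375, 407 and 395 CPM (log2 fold change 0.27, SE 0.0440; adjusted p = 0.00165 by edgeR). Osm, the gene of the cytokine oncostatin M and a STAT5 target, fell from 5.58, 5.75 and 5.08 CPM to 3.09, 2.503 and 3.05 CPM (log2 fold change −0.92, SE 0.153; adjusted p = 0.00206 by edgeR). Both calls by edgeR, 1 in each direction, were kept in 6 of 6 leave-one-out fits. DESeq2's test called 3 genes of this list higher and 1 lower. Beyond Itgax and Osm it called Bcl2l1 (log2 fold change 0.15, adjusted p = 0.0433) and Ccl22 (0.84, adjusted p = 0.0357) higher. By edgeR their adjusted p was 0.0715 and 0.0700.

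In the transduction list of CSF1R, 24 of 24 genes were tested, 1 rose, 1 fell and 22 did not pass edgeR's test, with a median of −0.013. The share called, 8.33%, is near the 5.07% of all genes. Dok2, an adaptor that dampens tyrosine kinase signalling, rose from 65.4, 68.0 and 72.6 CPM to 77.1, 84.7 and 83.1 CPM (log2 fold change 0.25, SE 0.0583; adjusted p = 0.0215 by edgeR). The call on Dok2 was lost without Cre− replicate 1 (adjusted p = 0.0841), Cre− replicate 2 (0.0679), Cre+ replicate 2 (0.0826) and Cre+ replicate 3 (0.0828). Mapk3, the kinase ERK1, fell from 213, 236 and 239.6 CPM to 196.5, 204 and 191 CPM (log2 fold change −0.22, SE 0.0513; adjusted p = 0.0212 by edgeR). The call on Mapk3 was lost without Cre− replicate 2 (adjusted p = 0.0833), Cre− replicate 3 (0.0947), Cre+ replicate 1 (0.0598) and Cre+ replicate 3 (0.0894). DESeq2's test also called Dok1 higher in Cre+ (log2 fold change 0.20, adjusted p = 0.0416 by DESeq2 and 0.0783 by edgeR). Of the 24 genes of this list, 9 had a log2 fold change above 0 and 15 below it.

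Csf3r (ENSMUSG00000028859, chr4:126024550-126044440), the receptor for G-CSF best known from neutrophils, was measured at 3.62, 3.46 and 2.74 CPM in Cre− and 2.39, 2.08 and 3.00 CPM in Cre+ cultures. Cre+ replicate 3 overlapped the Cre− range. The log2 fold change was −0.39 (SE 0.193, 95% interval −0.81 to 0.017), with an adjusted p of 0.282 by edgeR. The neutrophil markers summed to 10.8 to 12.5 CPM in Cre− and 8.85 to 10.2 CPM in Cre+ libraries, mostly S100a8 (means of 9.64 and 7.29 CPM), while S100a9, Ly6g, Mpo and Retnlg were at or near 0 in every library. The part of those markers in the value of Csf3r was not tested. Parts of Csf3r's longest transcript, 48% of its length in all, align at 95% identity or more with transcripts of 56 other genes, chiefly AC105061.2 over 1518 bases, and its count is uncertain for this reason.

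None of the TGF-β receptor and ligand genes was called by edgeR, and Tgfbr2 came nearest. Tgfbr1 (ENSMUSG00000007613, chr4:47353222-47414931), the signalling kinase, had 197, 190 and 172.5 CPM in Cre− and 190, 188 and 198 CPM in Cre+ cultures. The groups overlapped, with a log2 fold change of 0.043 (SE 0.0523, 95% interval −0.068 to 0.15; adjusted p = 0.719 by edgeR). Tgfbr2 (ENSMUSG00000032440, chr9:116084293-116175360), the chain that binds the ligand, had 71.7, 67.9 and 71.9 CPM in Cre− and 65.1, 63.8 and 58.7 CPM in Cre+ cultures. The groups did not overlap, but the difference did not pass the threshold, with a log2 fold change of −0.17 (SE 0.0574, 95% interval −0.29 to −0.050) and an adjusted p of 0.105 by edgeR. DESeq2's test called Tgfbr2 (−0.18, SE 0.0609, adjusted p = 0.0485).

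Counts on Tgfbr2 were 0.365, 0.358 and 0.417 of those on Tgfbr1 in Cre− and 0.343, 0.339 and 0.296 in Cre+ libraries. The ratio was lower in 3 of 3 Cre+ libraries than in any Cre− library (exact permutation p = 0.1, the smallest possible, adjusted 0.2). This ratio is the only test here of the difference between the receptor chains.

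Tgfb1 (ENSMUSG00000002603, chr7:25687002-25705077), the ligand gene, had 4.35, 3.85 and 4.04 CPM in Cre− and 3.30, 3.19 and 4.46 CPM in Cre+ cultures. Cre+ replicate 3 was the highest of all 6 libraries and the other Cre+ libraries the lowest. The log2 fold change was −0.16 (SE 0.168, 95% interval −0.52 to 0.20), with an adjusted p of 0.672 by edgeR. The median log2 fold change of the 9 genes tested was −0.12, and 7 of them were below 0. Of the 9, 1 was called (11.1%, against 5.07% of all genes), and 2 had groups that did not overlap (22.2%, against 24.0% of all genes).

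**Figure D3:**
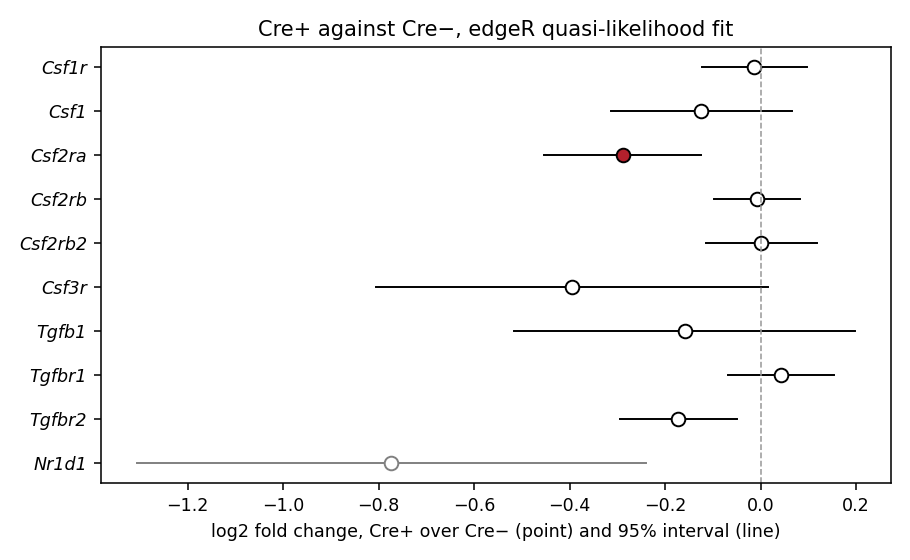
Log2 fold change of Cre+ over Cre− (points) with its 95% interval (lines) from edgeR's quasi-likelihood fit for the 9 genes tested and, in grey, for Nr1d1; the filled point has an adjusted p of at most 0.05. Csf2ra (−0.29) is the filled point, the interval of Tgfbr2 also lies below 0, and those of Csf1r, Csf2rb, Csf2rb2 and Tgfbr1 are narrow and span 0.

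Limma's voomWithQualityWeights, the method named by the study, as refit here called 572 genes (5.00% of all genes), Csf2ra among them. The study itself reports many more differentially expressed genes from this comparison, and the reason for the gap was not tested. Over all alternatives, the adjusted p of Csf2ra ran from 0.0101 to 0.183 and that of Tgfbr2 from 0.0485 to 0.565, with both log2 fold changes below 0 under each of them.

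**Figure D4:**
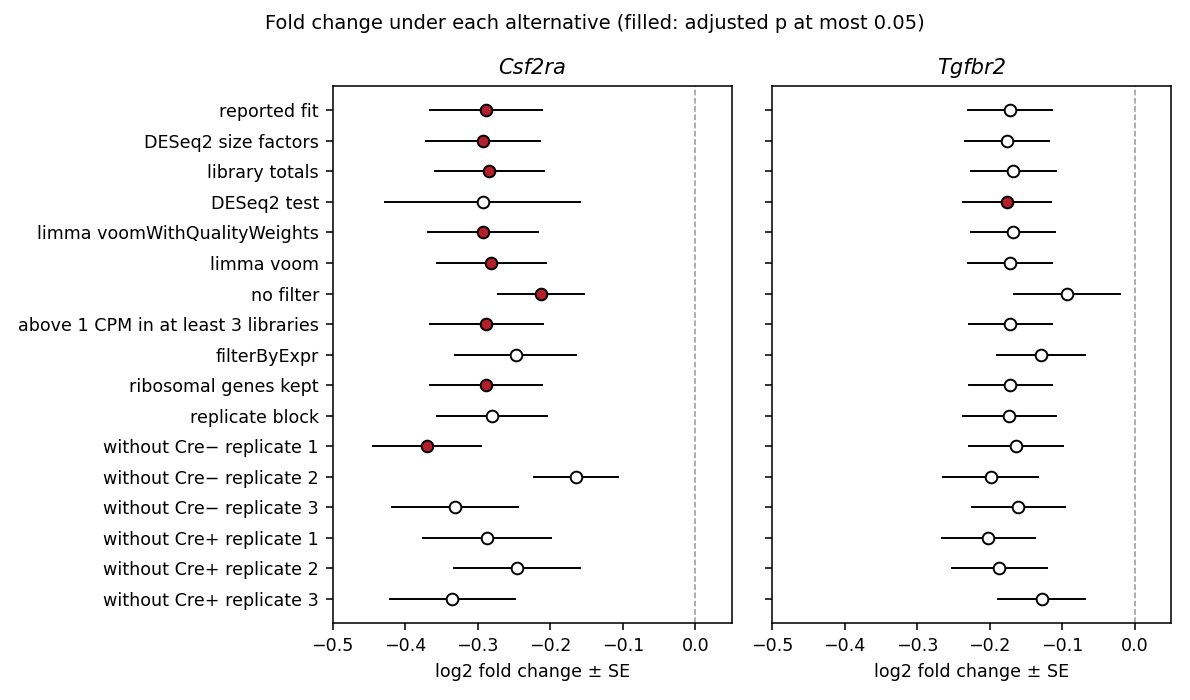
Log2 fold change ± SE of Csf2ra (left) and Tgfbr2 (right) under the reported fit and each alternative; filled points have an adjusted p of at most 0.05. Csf2ra moves from −0.37 without Cre− replicate 1 to −0.16 without Cre− replicate 2, and Tgfbr2 is filled under DESeq2's test alone.

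The genes around the TGF-β receptors were described by lists of ligands and activators, receptors, SMAD proteins and regulators, response genes, and microglial genes that depend on TGF-β. Together the 5 lists hold 69 gene symbols (Ctgf and Ccn2 name the same gene). Of these, 49 were tested and, by edgeR, 6 fell (12.2%, against 2.56% of all genes tested) and 0 rose (against 2.50%). The median log2 fold change was −0.068 against 0.0023 over all genes tested. Of the 6, 3 were called in every leave-one-out fit. The fibroblast and mural cell markers, whose summed levels in the 2 groups do not overlap, moved the same way, but at 2.66 CPM or less in all. The summed neuronal, monocyte and neutrophil markers were likewise lower in each Cre+ than in each Cre− library, and the endothelial ones higher. Such separation is common, since 24.0% of all single genes tested had groups that did not overlap. Of the neuronal and of the fibroblast and mural cell markers, 0 passed the expression filter. The part of all these cell types in the values of the lists was not tested.

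The lists of ligands and of receptors held none of these 6. Of 7 ligand and activator genes tested, edgeR called 0 (median −0.13; 1 at an unadjusted p under 0.05). DESeq2's test called 1, Thbs1, whose product thrombospondin-1 can activate latent TGF-β, at means of 6.79 CPM in Cre− and 4.53 CPM in Cre+ (log2 fold change −0.59, SE 0.194; adjusted p = 0.0358 by DESeq2 and 0.0927 by edgeR), and limma called 0. The most abundant, Nrros, whose product holds latent TGF-β1 on myeloid cells, had 115, 130.2 and 124 CPM in Cre− and 116.5, 117.5 and 122 CPM in Cre+ (log2 fold change −0.052, SE 0.0532; adjusted p = 0.663 by edgeR). Of 10 receptors of the wider family tested, edgeR called 0 (median −0.074; 1 at an unadjusted p under 0.05), limma 0, and DESeq2's test Tgfbr2, as given above. Of 15 SMAD genes and regulators tested, 2 fell (13.3%, against 2.56% of all genes), 0 rose and 13 did not pass edgeR's test (median −0.068).

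Pmepa1, a gene induced by TGF-β whose product binds SMADs and restrains the pathway, had 19.7, 17.3 and 20.0 CPM in Cre− and 12.99, 11.7 and 12.4 CPM in Cre+ cultures. Its log2 fold change was −0.62 (SE 0.0924; adjusted p = 0.000901 by edgeR), kept in 6 of 6 leave-one-out fits. Ski, a SMAD corepressor, fell from 30.4, 27.2 and 31.9 CPM to 23.4, 25.2 and 22.9 CPM (log2 fold change −0.32, SE 0.0786; adjusted p = 0.0274 by edgeR). The call on Ski was lost without Cre− replicate 1 (adjusted p = 0.0659), Cre− replicate 3 (0.110), Cre+ replicate 1 (0.0836) and Cre+ replicate 3 (0.114). DESeq2's test also called Bambi lower in Cre+ (log2 fold change −0.64, adjusted p = 0.0475 by DESeq2 and 0.104 by edgeR).

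Of 12 response genes tested, 3 fell (25%, against 2.56% of all genes), 0 rose and 9 did not pass edgeR's test (median −0.13). Pmepa1 is one of them and is also on the SMAD list. Junb, an AP-1 subunit gene and early target of SMADs and of many other signals, fell from 69.1, 80.6 and 78.0 CPM to 48.5, 60.6 and 45.0 CPM (log2 fold change −0.56, SE 0.0908; adjusted p = 0.00165 by edgeR), kept in 6 of 6 leave-one-out fits. Cdkn2b, the gene of the cell cycle inhibitor p15, fell from 9.61, 11.1 and 13.01 CPM to 6.92, 7.93 and 8.49 CPM (log2 fold change −0.53, SE 0.130; adjusted p = 0.0276 by edgeR). The call on Cdkn2b was lost without Cre− replicate 2 (adjusted p = 0.0566), Cre− replicate 3 (0.132), Cre+ replicate 1 (0.107) and Cre+ replicate 2 (0.0701). Tgfbi was called lower in Cre+ by DESeq2's test (log2 fold change −0.32, adjusted p = 0.0139 by DESeq2 and 0.0621 by edgeR). Limma called Tgfbi with quality weights only.

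Of 15 microglial genes known to depend on TGF-β, 10 were tested, 2 fell (20%, against 2.56% of all genes), 0 rose and 8 did not pass edgeR's test (median −0.037). Gas6, a ligand of the receptors that clear dying cells, fell from 10.8, 10.99 and 10.3 CPM to 7.55, 7.62 and 7.76 CPM (log2 fold change −0.49, SE 0.105; adjusted p = 0.0135 by edgeR), kept in 6 of 6 leave-one-out fits. Olfml3, a secreted protein gene of microglia, fell from 57.4, 53.9 and 58.7 CPM to 40.6, 46.2 and 52.5 CPM (log2 fold change −0.29, SE 0.0796; adjusted p = 0.0493 by edgeR). The call on Olfml3 was lost without Cre− replicate 1 (adjusted p = 0.103), Cre− replicate 2 (0.0586), Cre− replicate 3 (0.153), Cre+ replicate 1 (0.179) and Cre+ replicate 2 (0.127), and with ribosomal genes kept (0.0503). The 5 genes of this list below the filter did not exceed 1.25 CPM in any library, and P2ry12, Sall1 and Siglech, genes that define microglia in the brain, were among them. The list therefore describes the part of that gene set that these cultures expressed.

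**Figure D5:**
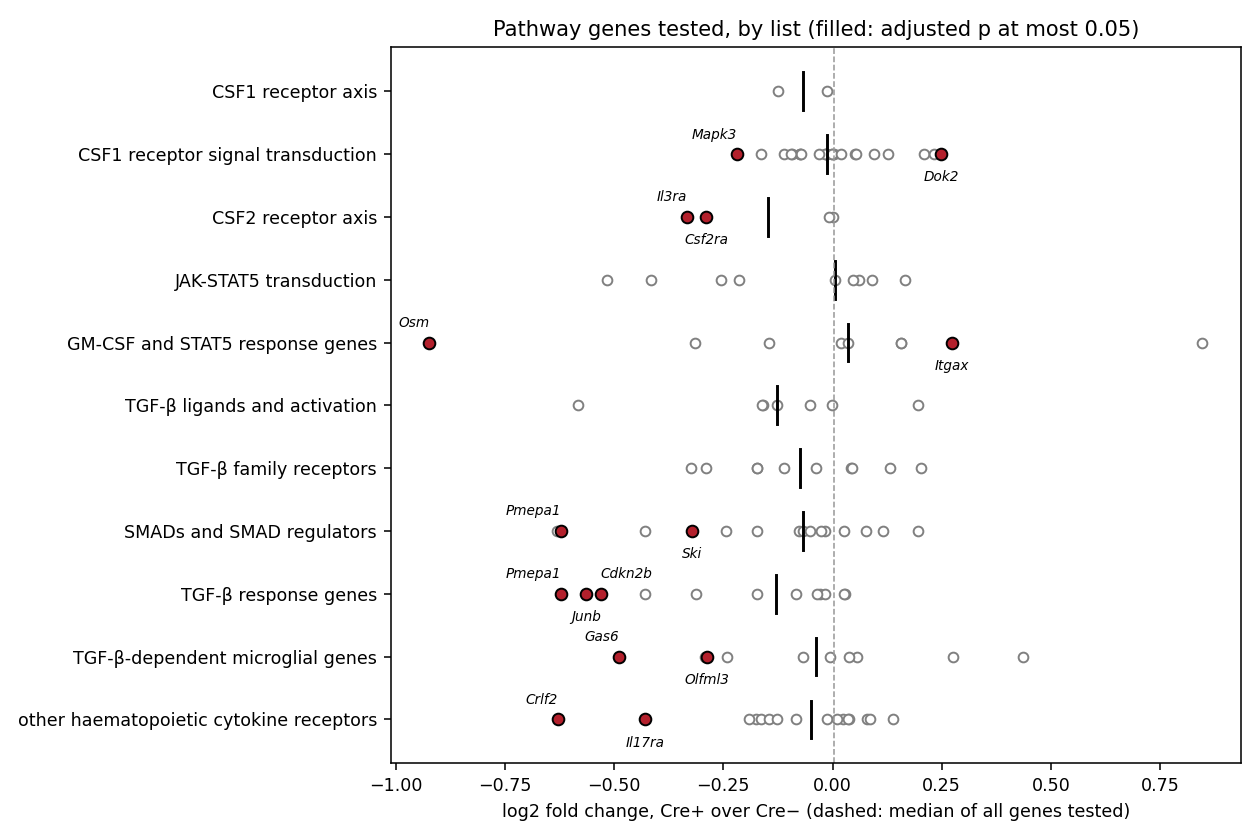
Log2 fold change of every tested gene on the pathway lists with at least 2 genes tested; filled points have an adjusted p of at most 0.05 and are named, short black bars are list medians, and the dashed line is the median of all genes tested (0.0023). Of the 114 genes tested over all lists, each counted once, 12 fell and 2 rose (12.3% called, against 5.07% of all genes), and Pmepa1 stands on 2 lists.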

How the data were processed

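The 6 libraries, 3 Cre− and 3 Cre+ by their titles, were made from low-input cDNA and sequenced as paired-end reads. The authors aligned to GRCm38 with STAR and counted per Ensembl gene with featureCounts, versions 2.7.9a and 2.0.3 in the submitters' processing notes. The counts as deposited are whole numbers, not normalized. The CPM as deposited by the authors are counts per library total, and the FPKM as deposited are CPM per kilobase of exon; both were read only to check units. Levels here were computed from the counts.

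Symbols and coordinates came from GENCODE M21, in which 55227 of 55487 identifiers matched (the other 260 held 0.00257% of counts). The 356 rRNA genes were removed. The quasi-likelihood test of edgeR 4.0.16 in R 4.3.3 (TMM factors 0.986 to 1.01, no covariates) was run on genes that exceeded 1 CPM in 4 or more libraries, and p-values were adjusted by Benjamini-Hochberg and called at 0.05. SE is the log2 fold change over the square root of F. The coefficient of variation between cultures was 10.0%, and libraries of a group differed by more than counting noise (chi-square over its degrees of freedom, 18.8 to 25.8). Sequences came from the GRCm38 genome and RefSeq (GRCm38.p6), and alignments from blastn 2.17.0; Csf1r, Il34 and Csf2rb had no promoter entry.

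The 10 genes and all lists were chosen with earlier results of these data known. The genes named are the 10, Nr1d1, and from each pathway list the called genes (up to 4), or else the most abundant one. Markers, Csf2, Il5ra, Jak2, Stat5a, Stat5b, Thbs1, Bcl2l1, Ccl22, Dok1, Bambi, Tgfbi and the microglial genes below the filter were named after their values were seen. Alternatives were DESeq2 1.42.0 and its size factors, library totals, limma 3.58.1 with and without quality weights, 3 other filters, ribosomal genes kept, the replicate number as a block, summed β chains and leave-one-out fits. With 3 libraries a group, no outlier test was run.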

Additional observations from a re-analysis of the deposited data

How the results depend on the processing

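The numbers of genes called, 286 higher and 293 lower, became 851 and 677 without a filter, and 412 and 478 by DESeq2's test. They were 155 to 201 and 166 to 254 in leave-one-out fits, where fewer samples were used. Of the 10 genes, 1 was called, 0 with filterByExpr (Csf2ra adjusted p = 0.104), and 0 to 1 in leave-one-out fits. With a replicate block, 205 genes rose, 225 fell and 0 of the 10 were called (Csf2ra adjusted p = 0.0579, Ski 0.0585). Same-numbered libraries did not deviate together (correlations −0.044 to 0.014). Such correlations cannot show whether same-numbered cultures shared a litter or a preparation, which no source used here states.

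Values near 0 changed sign. Csf1r was at 0.066 and Csf2rb at 0.072 without a filter, and at 0.030 and 0.036 with filterByExpr. These filters shifted all tested genes by medians of 0.0785 and 0.0427. Nrros was at 0.026 without a filter. Csf2rb2 was at −0.0023 with DESeq2 size factors, −0.0022 by DESeq2's test and −0.0043 when summed with Csf2rb. Leave-one-out ranges were −0.076 to 0.018 for Csf1r, −0.040 to 0.026 for Csf2rb, −0.043 to 0.055 for Csf2rb2 and −0.012 to 0.079 for Tgfbr1. No fit of these called any of those genes. Mapk3, Ski and Olfml3 were not called without a filter (adjusted p = 0.232, 0.0946 and 0.105) or with filterByExpr (0.0949, 0.0595 and 0.104). The cause of these changes in sign and in call was not tested. Depth limits Il34, with at most 6 counts in a library.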

Other observations

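The receptors of other haematopoietic cytokines give a comparison for the GM-CSF and G-CSF receptors. Of 20 such genes, 16 were tested, 2 fell (12.5%, against 2.56% of all genes), 0 rose and 14 did not pass edgeR's test, with a median log2 fold change of −0.048. Crlf2, a receptor chain for the cytokine TSLP, had 53.3, 53.9 and 56.8 CPM in Cre− and 32.8, 40.4 and 32.8 CPM in Cre+ cultures. All Cre+ values of Crlf2 lay well below the Cre− values, with a log2 fold change of −0.63 (SE 0.0783; adjusted p = 0.000183 by edgeR), and the call was kept in 6 of 6 leave-one-out fits. Il17ra, the receptor chain for IL-17A, fell from 14.8, 16.7 and 17.2 CPM to 11.5, 13.01 and 11.6 CPM (log2 fold change −0.43, SE 0.0978; adjusted p = 0.0186 by edgeR). The call on Il17ra was lost without Cre− replicate 2 (adjusted p = 0.0615), Cre− replicate 3 (0.0818), Cre+ replicate 1 (0.0724) and Cre+ replicate 3 (0.0792).

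Csf1r belongs to the class III receptor tyrosine kinases. Of the 5 genes of that class, Csf1r was the only one above the expression filter, and the other 4 did not exceed 1.16 CPM in any library.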
